A study of Mus musculus with 8 samples.

Results

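Bone marrow-derived macrophages (BMDMs), which are macrophages grown from mouse bone marrow with M-CSF, were compared between WT and Nudt21-cKO mice by RNA-seq, and the 55 genes described here encode histone and DNA modifying enzymes with a few of their partner subunits and readers. They were taken by symbol from the 21080 gene symbols of the expression tables. All 55 were present at both times and passed the filter on low values in every comparison. The cKO mice carried Nudt21 fl/fl with LysM-Cre, which is active in cells of the myeloid lineage, and the WT mice were sex-matched LysM-Cre littermates, so that Cre was present in both genotypes on a C57BL/6 background. BMDMs were either left untreated (0 h) or primed overnight with IFNγ and then given LPS for 4 h (4 h). Each of the 4 groups held 2 samples, 8 in all, and each sample was pooled from a pair of mice, so that the spread between samples is that between pools. The age of the mice is not given in the sources used here.

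The deposited value was read as coverage averaged over the bases of a gene. This unit was inferred from the values, in which no scaling for sequencing depth was found. It is given here as scaled coverage, after each sample was divided by a single factor that equalises the median gene, and log2 fold changes were taken on log2(scaled coverage + 0.1). Coverage summed over all genes ran from 14950300 to 17954900 per sample, and the factors were 1.53 to 1.70 at 0 h and 0.512 to 0.723 at 4 h. The number of reads behind a value is unknown, so no counting interval is given. Nudt21 itself stood at 465 and 419 in WT and 100.2 and 101 in cKO BMDMs at 0 h, and at 1068 and 953 in WT and 197 and 164 in cKO BMDMs at 4 h. Its log2 fold change was -2.13 (SE 0.10, adjusted p = 0.0349 by limma) at 0 h and -2.49 (SE 0.16, adjusted p = 0.0441 by limma) at 4 h, so the labels matched the targeted gene and part of the transcript signal remained. The 9 macrophage markers summed to between 80628 and 139277. The sums were at most 109 for 5 T cell markers, 93 for 5 B cell markers and 165 for 5 fibroblast markers. They were at most 432 for 4 dendritic cell markers and 1217 for 5 neutrophil markers. The T cell receptor complex gene Cd3e was at or near 0 in every sample. Lck, of the same list, was at most 4.64 at 0 h, and at 4 h at 39.1 and 68.7 in WT and 108 and 87.6 in cKO BMDMs. The B cell gene Cd79b was at 92.0 and 80.2 in WT BMDMs at 0 h. In bulk RNA, fewer cells of a type and less RNA per cell cannot be told apart.

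Histone tails carry methyl and acetyl groups that are written by methyltransferases and acetyltransferases, removed by demethylases and deacetylases, and read by proteins such as the BET family. DNA methyltransferases place methyl groups on cytosine, and TET enzymes oxidise them. In macrophages these marks accompany the switching of inflammatory genes by LPS and IFNγ, and the H3K27 demethylase Kdm6b is a textbook gene of the LPS response. Nudt21 is the subunit of cleavage factor Im that binds UGUA in pre-mRNA and takes part in the choice of the polyadenylation site.

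Dnmt3a, Brd3 and Hdac9 were the members called between the genotypes at both times, and the most distal UGUA of their annotated 3'UTRs is shown here because UGUA is the element that Nudt21 binds. The sequences were read in sense from GENCODE M21 transcripts on GRCm38, as DNA, and the capitals mark the most distal TGTA alone.
Dnmt3a, chr12:3914265-3914294, plus strand: aaggttgtaaatgTGTAtttggcttttact
Brd3, chr2:27445717-27445746, minus strand: aaaatgagtccatTGTAagtagtttagctt
Hdac9, chr12:34047705-34047734, minus strand: gttttgttttgttTGTAtttggaaacacgg
The 3'UTRs of the chosen transcripts were 6696 bases for Dnmt3a, 2886 for Brd3 and 4721 for Hdac9, and they held TGTA 26, 14 and 35 times. TGTA was present on the sense strand of the 3'UTR in 89.1% of the 55 members, with a median of 7 occurrences in a median length of 1188 bases. Over 13116 genes tested at 4 h with an annotated 3'UTR the share was 86.6%, with a median of 5 in 960 bases. A single protein-coding transcript was used per gene, taken by its APPRIS rank as principal isoform and then by the longest 3'UTR. Kdm4a and Hdac10, which are called below, had annotated 3'UTRs of 79 and 159 bases without TGTA in that transcript. Other transcripts were not searched, so a longer 3'UTR with TGTA could be missed. Across the members, the number of TGTA and the log2 fold change between genotypes had a Spearman rho of 0.025 at 0 h and -0.059 at 4 h, against 0.12 over 12488 genes and 0.064 over 13116 genes, and these points share the same 4 libraries at each time. A match to these letters is not a bound site, and no polyadenylation site was measured here.

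The members spanned a wide range of levels per base. The mean scaled coverage over the 8 samples ran from 49.7 for Kat6b to 5763 for Brd2, with a median of 437. In untreated WT BMDMs the highest were Brd2 (1391 and 1429), Ehmt2 (1297 and 1425), Hdac5 (896 and 929) and Dnmt3a (702 and 1102), and the order of Brd2 over Ehmt2 and of Hdac5 over Dnmt3a lay within the spread between the samples. In untreated cKO BMDMs Dnmt3a was the highest of the 55, at 1840.5 and 1615, followed by Brd2 at 1478 and 1553. After stimulation Brd2 stood above every other member in all 4 samples. The lowest means at 0 h were those of Hdac9 in both genotypes, and at 4 h those of Kat6b, although Kat6b (18.1 and 31.6) and Hdac7 (21.8 and 28.5) could not be ordered in cKO BMDMs at 4 h.

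The first comparison asked which of these genes differed between cKO and WT BMDMs before stimulation. As in the methods of the study, a call needed a fold change of more than 1.5 with p under 0.05 before adjustment, here from limma. Nsd1, Brd3 and Dnmt3a were called higher in cKO BMDMs and Hdac9 was called lower, and no other member was called. These 4 are 7.27% of the members, against 14.5% of the 15656 genes tested (7.34% higher and 7.18% lower). The 4 were called under all 4 scalings of the samples, against 6.57% of all genes higher and 5.51% lower. After Benjamini-Hochberg adjustment 0 members had a limma p under 0.05 against 1.18% of all genes, 9 had an unadjusted p under 0.05 against 23.9% of all genes, and the median log2 fold change was 0.00 over the members and 0.01 over all genes. With limma's other settings the adjusted count was 2 over all 8 samples, 2 with a mean of at least 5 and 7 with an intensity trend.

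At 4 h, 9 members were called. Kdm4a, Hdac4, Hdac10, Brd3 and Dnmt3a were higher in cKO BMDMs and Kmt2e, Hdac7, Hdac9 and Tet2 were lower, which is 16.4% of the members against 19.6% of the 15457 genes tested (9.5% higher and 10.1% lower). None of the members had an adjusted p under 0.05 by limma against 1.5% of all genes, 17 had an unadjusted p under 0.05 against 26.9% of all genes, and the adjusted count was 2 on the values as deposited, 2 with a mean of at least 5, 1 with quantile normalization, 12 with an intensity trend and 13 over all 8 samples. The median log2 fold change was -0.03 over the members and -0.05 over all genes. On the values as deposited, where the median of all genes is shifted by 0.31, 16 members were called higher and 1 lower, against 20.8% and 4.17% of all genes. Under all 4 scalings Kdm4a, Hdac4, Hdac10, Brd3 and Dnmt3a were called higher (8.61% of all genes) and Hdac9 lower (4.15%), while the calls of Kmt2e and Hdac7 were lost with equal total coverage and on the values as deposited, and that of Tet2 also with quantile normalization. At 4 h the summed macrophage markers were 115985 and 139277 in WT and 103915 and 113223 in cKO BMDMs, and the order turned on the values as deposited, with 71293 and 70016 in WT and 75141 and 79689 in cKO BMDMs. Of the 9 markers, Cd68 was called higher at both times, Adgre1, Csf1r and Fcgr1 lower at 0 h, and Adgre1, Fcgr1 and Spi1 lower at 4 h. Of the 15 proliferation genes, the 0 h comparison called Mki67 and Ccnb2 higher, while that at 4 h called Mki67 higher and Top2a, Cdk1, Tyms and Aurkb lower, with a list median of -0.55. Among the markers of other cells, Lck, Cd79b and Retnlg were called lower and Cd2, Col3a1 and Pdgfra higher at 0 h. At that time Lck, Cd2, Col3a1 and Pdgfra had low values, at most 9.50 in any sample. At 4 h Retnlg, Mpo and Xcr1 were called lower and Zbtb46 higher. The part of these markers in the genotype differences was not tested.

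**Figure D1:**
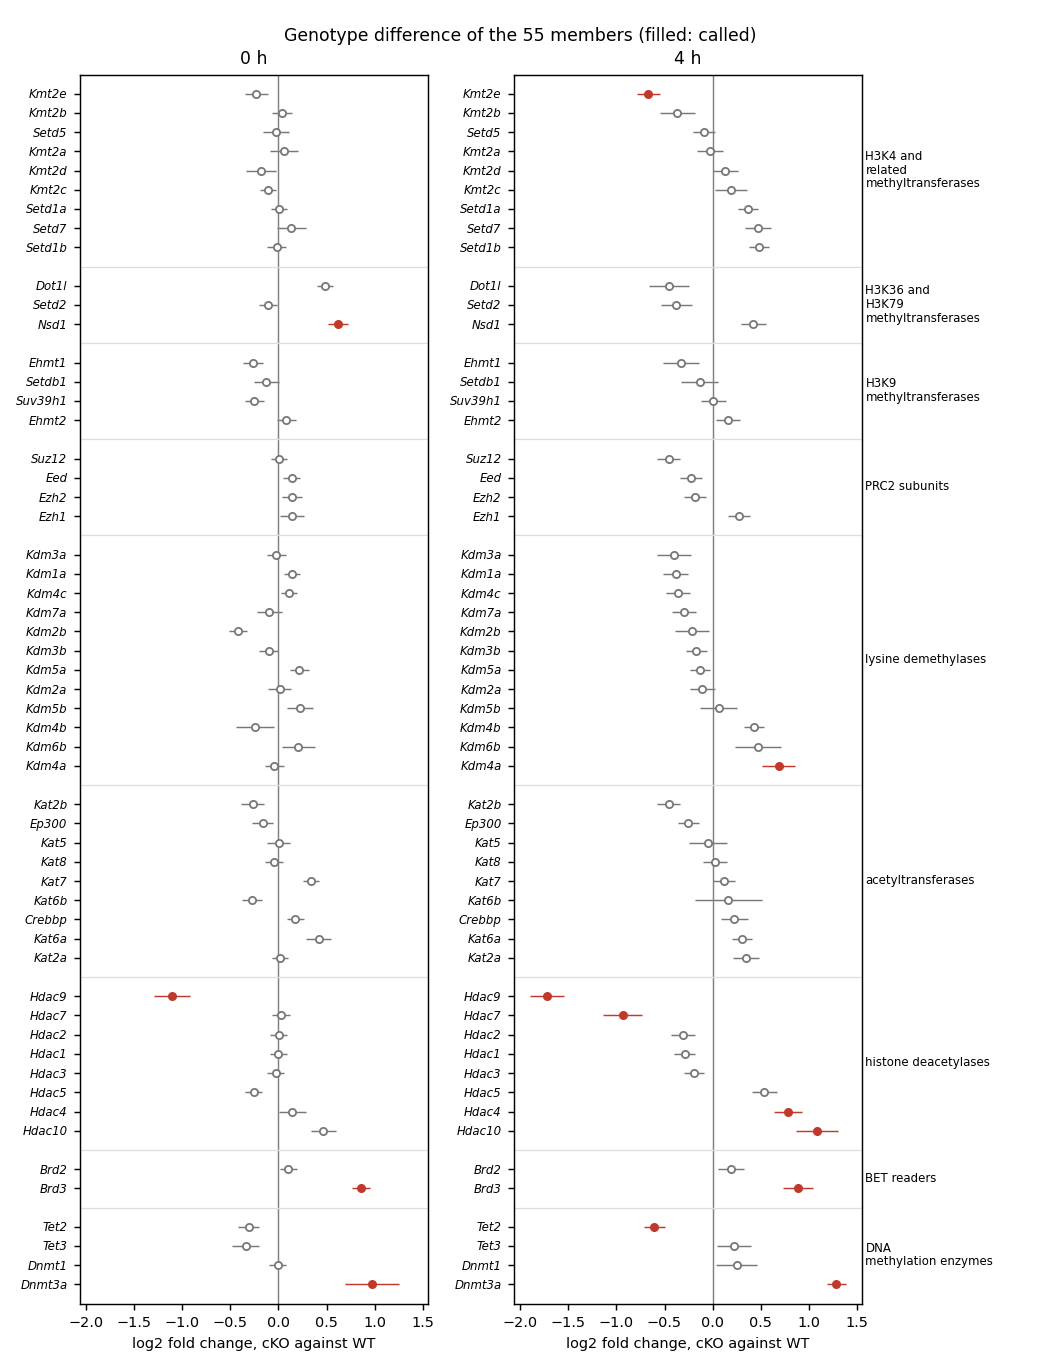
The log2 fold change of cKO against WT (x axis, with bars of 1 SE) is drawn for each of the 55 members by role at 0 h and at 4 h, from 2 samples per group, with filled red circles for called members and open circles for the others. Most members lie near 0 at both times. Dnmt3a and Brd3 are called to the right and Hdac9 to the left at both, and at 4 h Brd3 lies between Hdac4 and Hdac10.

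Dnmt3a, of the 4 DNA methylation enzymes, had the highest log2 fold change of the 55 members at both times. This de novo DNA methyltransferase stood at 702 and 1102 in WT and 1840.5 and 1615 in cKO BMDMs at 0 h, and at 4 h at 334 and 344 in WT and 832 and 822 in cKO BMDMs. Both cKO samples were above both WT samples at each time, and the WT samples at 0 h were far apart. The log2 fold change was 0.97 (SE 0.28, adjusted p = 0.191 by limma, 0.0356 to 0.498 over the alternatives) at 0 h and 1.28 (SE 0.10, adjusted p = 0.0575 by limma, 0.00504 to 0.304 over the alternatives) at 4 h, a 2.44-fold higher level. The call at 0 h was lost without cKO replicate 3 (log2 fold change 0.88) and without cKO replicate 4 (1.06). Over all the alternatives the log2 fold change at 0 h ran from 0.65 to 1.30. The call at 4 h was kept in every leave-one-out fit. Tet2, a dioxygenase that oxidises methylcytosine, was at 982 and 961 in WT and 657 and 621 in cKO BMDMs at 4 h, a log2 fold change of -0.61 (SE 0.11, adjusted p = 0.107 by limma). The Tet2 groups did not overlap, and without cKO replicate 4 its fold change of -0.56 no longer passed the rule. Its log2 fold change was -0.25 on the values as deposited and -0.46 with equal total coverage, and not called on either. The maintenance methyltransferase Dnmt1 overlapped between the genotypes at both times, with log2 fold changes of -0.01 and 0.25. Tet3 had -0.34 at 0 h and 0.22 at 4 h and was called at neither.

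Brd3 and Brd2 are BET proteins, which bind acetylated histones through their bromodomains. Brd3 was at 293 and 274 in WT and 501 and 524 in cKO BMDMs at 0 h, and at 4 h at 209.7 and 172 in WT and 342 and 360.5 in cKO BMDMs. The cKO samples were the higher ones at both times, with log2 fold changes of 0.85 (SE 0.09, adjusted p = 0.0818 by limma, 0.00475 to 0.351 over the alternatives) and 0.89 (SE 0.16, adjusted p = 0.107 by limma, 0.0151 to 0.402 over the alternatives). The call at 4 h was lost without cKO replicate 3 (0.92) and without cKO replicate 4 (0.85), where the size hardly moved and the lone cKO sample was taken to vary like the WT pair. Brd2 was not called at either time, with 0.10 and 0.19. Across all genes, 2.37% were called higher at both times and 2.3% lower. The comparisons used separate samples, but replicate numbers recur at both times, and the labels do not say whether the pools were the same. Calls at both times are therefore not shown to be independent.

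Of the 8 histone deacetylases, 1 was called at 0 h, where 14.5% of all genes were, and 4 were called in both directions at 4 h, where 19.6% were, and the call of Hdac7 at 4 h depended on the scaling. Hdac9, a class IIa deacetylase, was at 45.1 and 58.4 in WT and 25.2 and 22.5 in cKO BMDMs at 0 h, and at 4 h at 167 and 212 in WT and 58.5 and 55.3 in cKO BMDMs. Each cKO sample was under each WT sample of its time, with log2 fold changes of -1.11 (SE 0.18, adjusted p = 0.109 by limma, 0.0268 to 0.395 over the alternatives) and -1.72 (SE 0.17, adjusted p = 0.0722 by limma, 0.00843 to 0.364 over the alternatives). The 0 h call of Hdac9 was lost without cKO replicate 4 (-1.02), and the 4 h call held in every leave-one-out fit. Hdac7, another class IIa member, overlapped between the genotypes at 0 h (68.8 and 72.1 in WT, 69.3 and 74.3 in cKO). At 4 h Hdac7 stood at 44.3 and 51.5 in WT against 21.8 and 28.5 in cKO BMDMs. Its log2 fold change at 4 h was -0.94 (SE 0.21, adjusted p = 0.128 by limma), and ran from -1.13 to -0.58 over the alternatives. Its exons overlap those of Slc48a1 on the opposite strand, and since strand is not stated to have been used in counting, reads of the pair cannot be told apart.

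The other deacetylases called at 4 h were higher in cKO BMDMs. Hdac4, also of class IIa, was at 97.7 and 105 in WT and 159.7 and 190.4 in cKO BMDMs, a log2 fold change of 0.78 (SE 0.15, adjusted p = 0.115 by limma). It overlapped between the genotypes at 0 h, and the lincRNA gene Gm26720 shares exon sequence with it on the opposite strand. Hdac10, a class IIb enzyme known as a polyamine deacetylase, was at 43.1 and 41.1 in WT and 75.5 and 106 in cKO BMDMs, a log2 fold change of 1.08 (SE 0.22, adjusted p = 0.122 by limma). At 0 h Hdac10 had 0.47, under the fold limit. The 4 h calls of Hdac4, Hdac7 and Hdac10 were each lost without WT replicate 1 and without WT replicate 2, that of Hdac7 also without cKO replicate 3, and that of Hdac4 also without cKO replicate 4, at log2 fold changes of 0.65 to 0.91 for Hdac4, -1.13 to -0.74 for Hdac7 and 0.84 to 1.33 for Hdac10 over the 4 fits. Class I genes Hdac1, Hdac2 and Hdac3 had -0.29, -0.31 and -0.19 at 4 h and none was called, and on the values as deposited the sign of all 3 turned (0.07, 0.05 and 0.17).

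**Figure D2:**
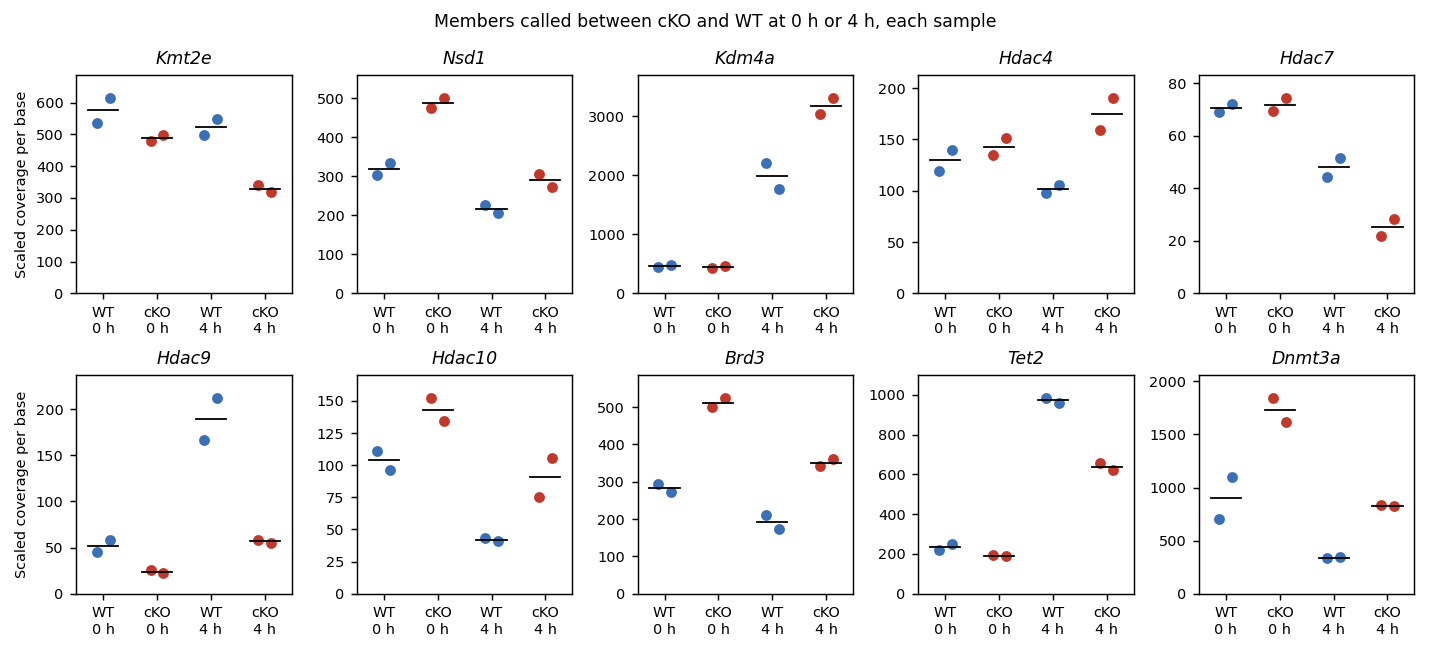
Scaled coverage per base (y axis, from 0) is plotted for each sample of WT (blue) and cKO (red) BMDMs at 0 h and 4 h for the 10 members called at either time, and the lines are group means of 2 samples. The groups of Dnmt3a, Brd3, Hdac9, Hdac10, Nsd1, Kmt2e and Tet2 are apart at both times. Those of Kdm4a, Hdac4 and Hdac7 are apart at 4 h and overlap at 0 h. These members are shown because they were called, and the share of all genes with groups apart at both times was not counted.

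Among the 9 members grouped as H3K4 and related methyltransferases, none was called at 0 h and Kmt2e alone was called at 4 h. The shares of all genes were 14.5% and 19.6%. Kmt2e, a SET and PHD domain protein of the KMT2 family, was at 499 and 549 in WT and 339 and 319 in cKO BMDMs, a log2 fold change of -0.67 (SE 0.12, adjusted p = 0.107 by limma). The groups did not overlap, the call was lost without cKO replicate 3 (-0.71) and without cKO replicate 4 (-0.63), and its log2 fold change was -0.31 on the values as deposited, where the call was lost as well. Its exons overlap Srpk2 on the opposite strand. The other members of the group, which include Kmt2a to Kmt2d and the Set1 enzymes Setd1a and Setd1b, had log2 fold changes between -0.37 (Kmt2b) and 0.48 (Setd1b) at 4 h. Nsd1, an H3K36 methyltransferase, was at 303 and 335 in WT and 475 and 501 in cKO BMDMs at 0 h, a log2 fold change of 0.62 (SE 0.10, adjusted p = 0.110 by limma). Its call was lost without WT replicate 1 (0.54) and without cKO replicate 4 (0.58), and at 4 h Nsd1 had 0.42. Setd2 and Dot1l, which methylate H3K36 and H3K79, were not called.

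None of the H3K9 methyltransferases and PRC2 subunits among the 55 members was called between the genotypes. The 4 H3K9 methyltransferases Ehmt1, Ehmt2, Suv39h1 and Setdb1 ranged from -0.26 to 0.08 in log2 fold change at 0 h and from -0.33 to 0.16 at 4 h. The PRC2 genes Ezh1, Ezh2, Eed and Suz12, whose complex methylates H3K27, ranged from 0.01 to 0.14 at 0 h and from -0.46 to 0.27 at 4 h, and 0 of the 8 were called at either time, beside 14.5% of all genes at 0 h and 19.6% at 4 h. Suz12 was at 1205 and 1067 in WT and 824 and 827 in cKO BMDMs at 4 h, with an unadjusted limma p of 0.0332 and a fold under the limit.

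Of the 12 lysine demethylases, Kdm4a was the only one called between genotypes, at 4 h, where 19.6% of all genes were called, and 0 were called at 0 h, where 14.5% were. Kdm4a, which acts on H3K9 and H3K36, was at 445 and 476 in WT and 431 and 462 in cKO BMDMs at 0 h, and at 4 h at 2212 and 1762 in WT and 3044 and 3314 in cKO BMDMs. The genotypes overlapped before stimulation and were apart after it, with a log2 fold change of 0.69 (SE 0.17, adjusted p = 0.148 by limma) at 4 h. The call was lost without WT replicate 2 (0.52), cKO replicate 3 (0.75) or cKO replicate 4 (0.62). Its paralogues Kdm4b and Kdm4c had 0.43 and -0.36 at 4 h and were not called. None of the 9 acetyltransferases was called at either time, beside the same shares of all genes. Ep300 and Crebbp, the paralogous acetyltransferases of H3K27, had -0.25 and 0.23 at 4 h, and the range of the 9 was -0.46 (Kat2b) to 0.35 (Kat2a).

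The second question was how the members responded to IFNγ/LPS within each genotype, where a member was said to rise or fall at a fold change over 1.5 and a Benjamini-Hochberg adjusted limma p under 0.05 in a fit of all 8 samples. In WT BMDMs 18 members rose and 13 fell, which is 56.4% of the members against 55% of the 16100 genes tested (33.8% higher and 21.2% lower). In cKO BMDMs 17 rose and 14 fell, also 56.4%, against 52.2% of all genes (31.6% higher and 20.6% lower). These splits depend on the scaling. On the values as deposited, where the median of all genes fell by 1.24 in WT and 1.03 in cKO BMDMs, 3 members rose and 41 fell in WT (11.7% and 54.7% of all genes) and 3 rose and 38 fell in cKO BMDMs (13.2% and 50.4%), so the directions below are given with those that held under all 4 scalings. Each time point has a table of its own, so stimulation cannot be told apart from any step that differed between the tables.

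Kdm6b, Brd2 and Kdm4a rose in both genotypes under all 4 scalings, against 11.7% of all genes in WT and 12.8% in cKO BMDMs. Kdm6b, which removes methyl groups from H3K27, went from 86.8 and 112 to 2009.9 and 1384 in WT and from 113 and 115 to 2295 and 2335 in cKO BMDMs. Its log2 fold change was 4.08 (SE 0.22) in WT and 4.34 (SE 0.22) in cKO BMDMs, the largest of the members, and 2.61 and 3.14 on the values as deposited. An antisense gene, Kdm6bos, shares exon sequence with it on the opposite strand. Brd2 went from 1391 and 1429 to 10029.9 and 8766 in WT and from 1478 and 1553 to 10331 and 11129.9 in cKO BMDMs, and it had the highest mean level per base of the 55 over the 8 samples, followed by Kdm4a, Ehmt2, Hdac1 and Kdm6b. The log2 fold changes of Brd2 were 2.73 and 2.82 in WT and cKO BMDMs. Kdm4a was 4.29-fold higher at 4 h than at 0 h in WT and 7.12-fold higher in cKO BMDMs. On the values as deposited the log2 fold changes were 1.27 and 1.62 for Brd2 and 0.63 and 1.63 for Kdm4a. The H3K9 methyltransferase Ehmt2 was between 1297 and 1678 in scaled coverage in all 8 samples and was not called in either genotype. On the values as deposited its group means went from 2091 to 799 in WT and from 2365 to 1145 in cKO BMDMs.

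**Figure D3:**
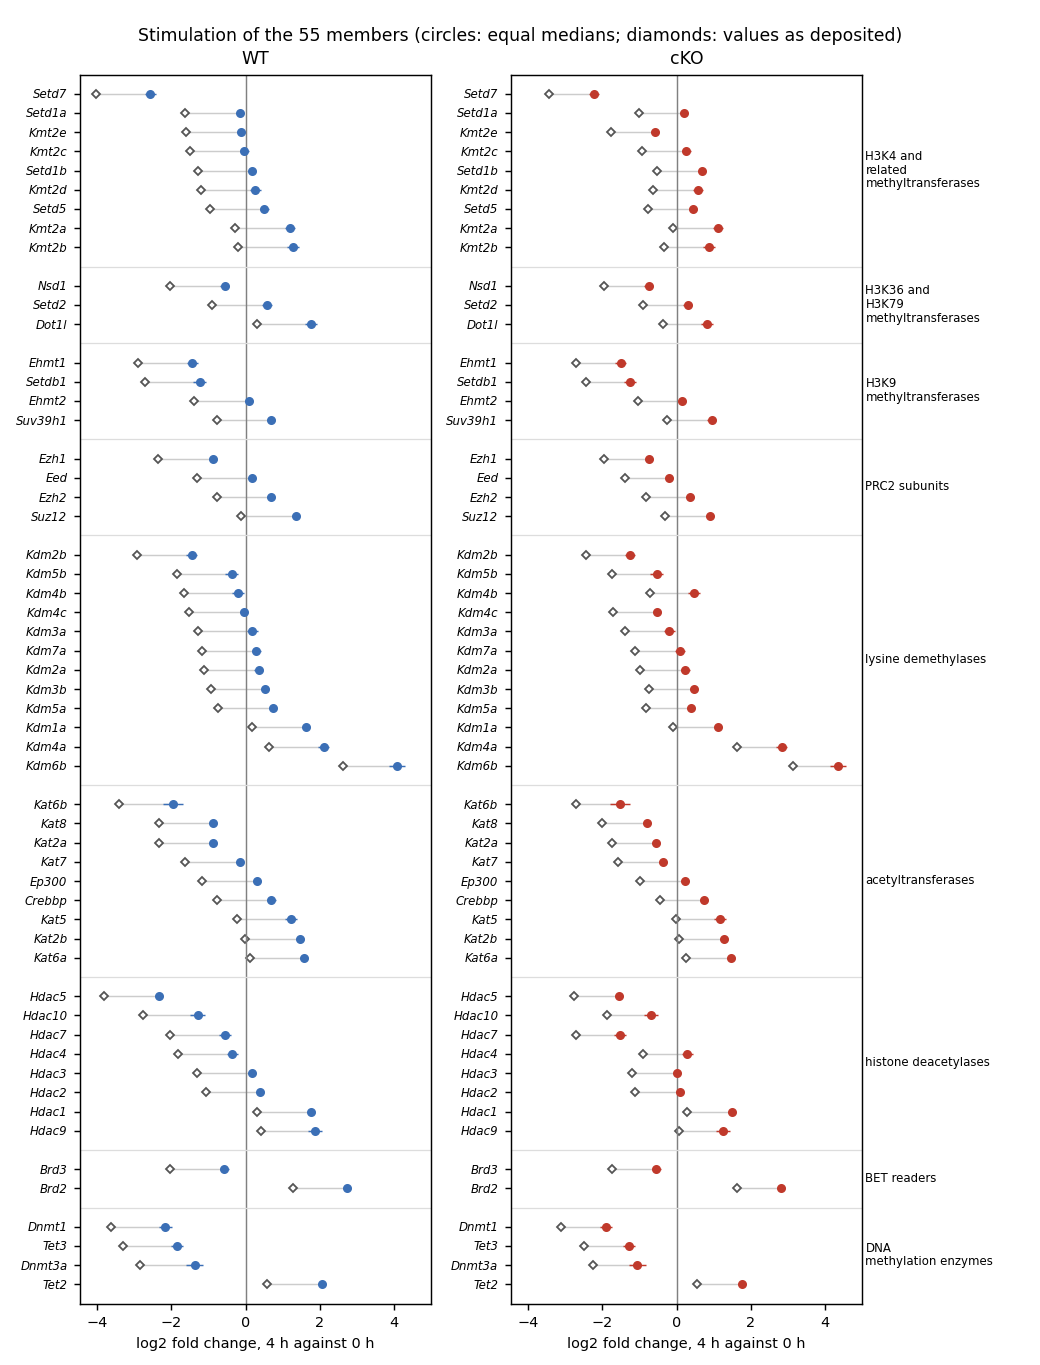
The log2 fold change of 4 h against 0 h is drawn for the 55 members by role in WT and in cKO BMDMs, with filled circles and bars of 1 SE for scaled coverage and open diamonds for the values as deposited, each of which lies to the left of the circle of its own gene. Among the circles Kdm6b, Brd2 and Kdm4a lie farthest to the right, and Setd7, Hdac5 and Dnmt1 farthest to the left in WT BMDMs.

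The genes that fell under all 4 scalings numbered 13 in WT and 14 in cKO BMDMs, against 19.7% and 19.6% of all genes. In WT these were Setd7, Ehmt1, Setdb1, Ezh1, Kdm2b, Kat2a, Kat6b, Kat8, Hdac5, Hdac10, Tet3, Dnmt1 and Dnmt3a. In cKO BMDMs the list lacked Kat2a and held Nsd1 and Hdac7 in addition. Setd7, a SET domain lysine methyltransferase, was between 178 and 222 at 0 h and between 32.7 and 50.1 at 4 h over both genotypes, with log2 fold changes of -2.56 in WT and -2.23 in cKO BMDMs. Dnmt1 went from 524 and 553 to 103 and 141 in WT and from 527 and 545 to 138 and 149 in cKO BMDMs, with log2 fold changes of -2.16 (SE 0.17) and -1.90 (SE 0.17). The 3 DNA methylation enzymes Dnmt1, Dnmt3a and Tet3 thus fell in both genotypes, with no overlap between the times. The call of Dnmt3a in cKO BMDMs (-1.06) was lost without replicate 3 at 0 h or either replicate at 4 h, and that of Hdac10 (-0.68) without either replicate at 0 h or replicate 3 at 4 h. Tet2 was called higher on scaled coverage (2.05 in WT, 1.75 in cKO) and was at 0.58 and 0.55 on the values as deposited, under the fold limit. The sum of 15 proliferation genes was 4324 to 5541 at 0 h and 16120.5 to 21227.5 at 4 h, and on the values as deposited 7161 to 8485 and 10010.1 to 12814. Pcna made up 55.1% to 66.2% of it at 0 h and 56.4% to 68.9% at 4 h, and the part of these genes in the levels of Dnmt1 and Ezh2 was not tested.

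The direction of several writers depended on the scale. The log2 fold change in WT BMDMs was 1.28 for Kmt2b, 0.68 for Suv39h1 and 1.35 for Suz12, and -0.19, -0.78 and -0.11 on the values as deposited. All 3 were also called higher in cKO BMDMs on scaled coverage and turned there too on the values as deposited, and with equal total coverage they turned in both genotypes. Dot1l, the H3K79 methyltransferase, had 1.77 in WT and 0.83 in cKO BMDMs, and 0.30 and -0.37 on the values as deposited, so its direction in cKO BMDMs turned. Kmt2a, also a writer of H3K4 methylation, rose on scaled coverage in both genotypes (1.19 and 1.11) and was at -0.28 and -0.09 on the values as deposited. Ezh1, Ehmt1 and Kdm2b fell on every scale, with -0.88, -1.44 and -1.46 in WT BMDMs.

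By role, the scaled comparison gave rises and falls in most groups. Of the 12 demethylases, Kdm1a, Kdm4a and Kdm6b rose in both genotypes and Kdm2b fell in both. Kdm1a, which acts on H3K4, was at 486 and 497 at 0 h and 1629 and 1432 at 4 h in WT BMDMs, and at 541 and 544 at 0 h and 1138 and 1202 at 4 h in cKO BMDMs. Its log2 fold changes were 1.63 and 1.11, and 0.17 and -0.09 on the values as deposited. Of the 9 acetyltransferases 4 rose in both genotypes (Crebbp, Kat2b, Kat5 and Kat6a), and Kat6b and Kat8 fell in both. Kat6a and Kat6b, paralogous MYST enzymes, had 1.57 and -1.96 in WT BMDMs. Of the 8 deacetylases Hdac1 and Hdac9 rose in both, and Hdac5 and Hdac10 fell in both. The class I deacetylase Hdac1 went from 583 and 549 to 1997 and 1869 in WT and from 568 and 563 to 1602 and 1561 in cKO BMDMs, and had 0.30 and 0.28 on the values as deposited. Hdac9, with the lowest mean level of the deacetylases at 0 h in both genotypes, had 1.87 in WT and 1.26 in cKO BMDMs, while Hdac5 had -2.35 and -1.55. On the values as deposited the log2 fold changes of Hdac9 were 0.41 and 0.06 and were not called, and none of the 9 acetyltransferases was called higher. There the direction of Crebbp turned in both genotypes (-0.77 and -0.46), Kat5 was at -0.24 and -0.03, Kat2b at -0.01 and 0.07 and Kat6a at 0.11 and 0.26. In all, 16 members rose and 12 fell in both genotypes, against 27.4% and 15.7% of all genes. Ezh2, Kdm5a and Kat2a passed in WT BMDMs alone and Setd1b, Hdac7 and Nsd1 in cKO BMDMs alone, which is no test of a difference between the genotypes. On the values as deposited the direction turned for Ezh2 (-0.78) and Kdm5a (-0.74) in WT and for Setd1b (-0.52) in cKO BMDMs.

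That difference was tested as the genotype effect at 4 h minus that at 0 h. None of the 55 members had an adjusted limma p under 0.05, against 2.27% of the 16100 genes, and 14 had an unadjusted p under 0.05, against 22% of all genes. The count was 1 with equal total coverage (Kdm4a), 4 with an intensity trend (Dot1l, Hdac5, Kdm1a and Kdm4a), 2 without WT replicate 2 at 4 h (Dot1l and Hdac5) and 0 in the other fits. Kdm4a had a difference of 0.73 (SE 0.20, adjusted p = 0.129 by limma). Hdac5 had the smallest adjusted p, with 0.79 (SE 0.14, adjusted p = 0.0689 by limma). It was at 896 and 929 in WT and 756 and 769 in cKO BMDMs at 0 h, and at 4 h at 167 and 192 in WT and 254 and 266 in cKO BMDMs. The cKO samples were thus the lower ones before stimulation and the higher ones after it, under all 4 scalings for the direction of the means.

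**Figure D4:**
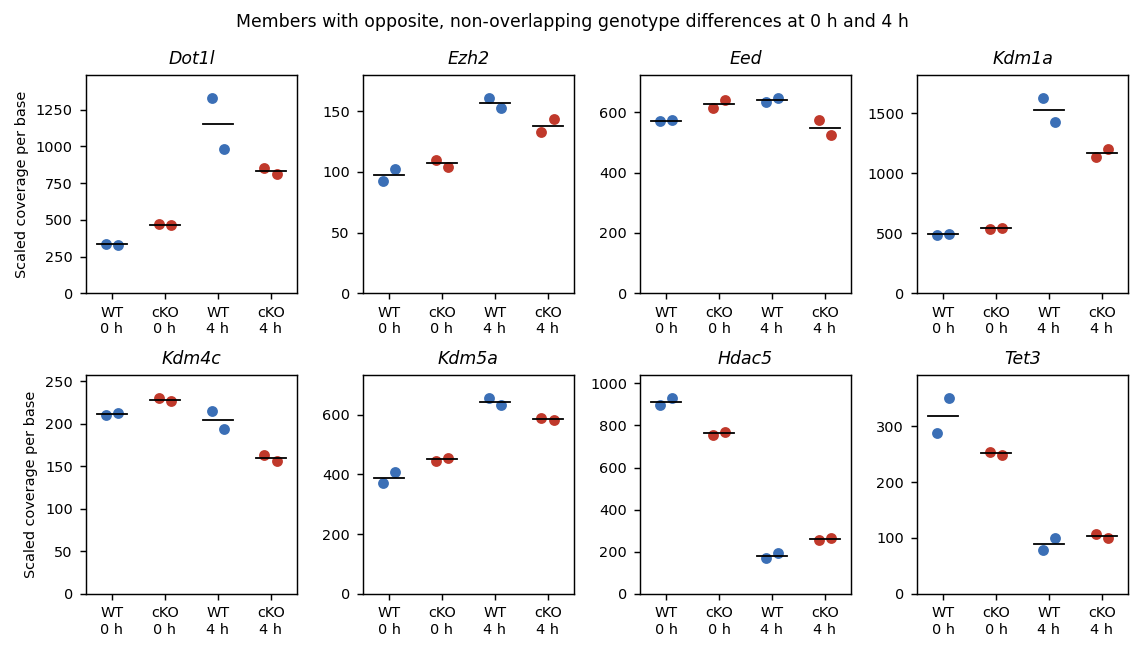
Scaled coverage per base (y axis, from 0) is plotted for each sample of WT (blue) and cKO (red) BMDMs at 0 h and 4 h for the 8 members whose groups did not overlap and whose order reversed between the times, with lines at the means of 2 samples. Hdac5 and Tet3 were lower in cKO samples at 0 h and higher at 4 h, and the other 6 show the reverse order. Such a reversal was found in 8 of the 55 members and in 11.5% of the 14318 genes tested at both times.

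Genes of the same families outside the list, and partner subunits, were described in the same way. Of 49 other chromatin enzymes, 0 were called between genotypes at 0 h, and at 4 h Kdm1b, Setmar, Prmt7, Dnmt3b and Ncoa1 were called higher and Setdb2, Hdac8, Hdac11 and Hat1 lower in cKO BMDMs. Of 28 complex partners, Wdr5, a core subunit of the KMT2 complexes, and Ing5, a reader in MYST acetyltransferase complexes, were called higher at both times, and Rbbp7 and Aebp2, which are found with PRC2, were called lower at 4 h. These counts stand beside 14.5% of all genes called at 0 h and 19.6% at 4 h. The 4 h calls of Setdb2, Hdac8, Hat1 and Rbbp7 were lost on the values as deposited, those of Kdm1b, Hat1 and Rbbp7 with equal total coverage and that of Rbbp7 also with quantile normalization, and the 0 h call of Wdr5 was lost with equal total coverage and quantile normalization. The medians of these lists were 0.05 and -0.04 at 0 h and 0.04 and -0.15 at 4 h, beside 0.01 and -0.05 over all genes.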

How the data were processed

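The authors aligned paired-end reads of unstated strandedness to mm10 (GRCm38) with HISAT2 2.2.1 and quantified RefSeq genes with StringTie 2.1.7, and the deposited tables, 1 for each time, hold a coverage signal for every gene symbol in each sample. The unit was read from the values, since the tables do not name it. The deposited fold change, p-value, FDR and class columns of the authors were not used, and 0 other value columns were left unused. A treatment tag in the labels names the stimulation at 0 h too, but the titles and the methods made these the untreated samples. The members and gene lists were chosen with earlier results of these data known.

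Each sample was divided by a factor equalising the median log2 value, because no scaling for depth was found in them. limma 3.58.1 in R 4.3.3 was run on log2(value + 0.1) over genes with a mean of at least 0.5, on 4 samples per genotype comparison and on all 8 for stimulation and the difference of genotype effects, with Benjamini-Hochberg adjustment over all genes. An exact permutation test of 2 against 2 samples cannot go below p = 0.333. Of these fits, that of cKO against WT at 4 h alone was tested on simulated data. Named members were those called between genotypes, the highest and lowest called stimulation response of each role group in WT, and the 5 most abundant. Those whose genotype order reversed and others named beside them were added after their values were seen. Alternatives covered scaling, pseudocount, filter, variance trend, samples in the fit, replicate block and replicates left out. 3'UTRs came from GENCODE M21 on GRCm38. Polyadenylation site usage was not analysed here.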

Additional observations from a re-analysis of the deposited data

Results flagged for a closer look

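In 8 members both cKO samples lay on one side of both WT samples at 0 h and on the other side at 4 h, as in 11.5% of the 14318 genes tested at both times. The difference was tested as the genotype effect at 4 h minus that at 0 h on the log2 scale, with limma over all 8 samples, and no adjusted p was under 0.05 with the main settings.

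Hdac5 had a difference of 0.79 (adjusted p = 0.0689 by limma, 0.0207 to 0.224 over the alternatives) and Tet3 one of 0.56 (0.244, 0.121 to 0.455 over the alternatives), with cKO BMDMs lower at 0 h and higher at 4 h. Dot1l had -0.94 (adjusted p = 0.106, 0.0273 to 0.270) and Kdm1a -0.53 (0.125, 0.0439 to 0.322), with cKO BMDMs higher at 0 h and lower at 4 h. These 4 kept opposite directions of the group means at the 2 times under all 4 scalings, although the log2 fold changes of Dot1l and Kdm1a at 4 h shrank to -0.10 and -0.02 on the values as deposited.

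The other members went in the direction of Dot1l, with differences of -0.32 for Ezh2 (adjusted p = 0.274, 0.237 to 0.858), -0.36 for Eed (0.190, 0.0913 to 0.818), -0.47 for Kdm4c (0.135, 0.0824 to 0.442) and -0.35 for Kdm5a (0.206, 0.109 to 0.815). For these the 4 h direction depended on the scaling. On the values as deposited cKO BMDMs were higher at 4 h, with log2 fold changes of 0.18 for Ezh2, 0.13 for Eed and 0.23 for Kdm5a, and level for Kdm4c (0.00). With equal total coverage Kdm5a was at 0.01.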

How the results depend on the processing

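At 4 h the members called higher and lower between genotypes were 5 and 4, against 16 and 1 on the values as deposited, and 1 was called lower with equal total coverage. For stimulation, 18 higher and 13 lower in WT became 3 and 41 as deposited, 4 and 41 with equal total coverage and 20 lower with quantile normalization. In cKO, 17 and 14 became 3 and 38 as deposited, 3 and 38 with equal total coverage, and 10 and 24 with quantile normalization. As deposited and with equal total coverage the response turned for Kmt2b in WT (-0.19 and -0.14) and cKO (-0.33 and -0.37), Suv39h1 in WT (-0.78 and -0.73) and cKO (-0.26 and -0.30), Suz12 in WT (-0.11 and -0.063) and cKO (-0.31 and -0.35) and Dot1l in cKO (-0.37 and -0.41). At 0 h the sign turned for Kdm4a as deposited (0.050) and for Hdac7 with equal total coverage (-0.00030), and leaving out replicates gave -0.094 to 0.0053 for Kdm4a and -0.022 to 0.078 for Hdac7. The cause was not tested.

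The difference of genotype effects was called in 366 genes, in 1153 with an intensity trend (2 members higher, 2 lower) and in 1 member, higher, with equal total coverage. Replicate numbers recur at both times, but the labels do not say whether same-numbered samples share a pool, so they were not taken as pairs. Their deviations correlated at 0.0803 in WT and 0.0652 in cKO over 12817 genes, which cannot settle whether they are pairs. With the replicate block the difference was called in 29 genes and 0 members. Leaving out each replicate in turn gave, at 0 h, 1 to 3 members higher, 0 to 1 lower and 1958 to 2383 genes, at 4 h, 2 to 4 higher, 2 to 4 lower and 1997 to 3539 genes, for stimulation 17 to 21 higher and 14 to 15 lower in WT and 17 to 18 and 13 to 14 in cKO, and for the difference 159 to 688 genes with 0 to 1 members each way. With 1 sample left in a group, its spread was taken from the others. Depth per value is unknown, and 2 samples per group limit every p.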
